A study of Mus musculus with 2 samples.

Results

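The 10 genes described here are the tumour suppressor gene Trp53, its negative regulators Mdm2 and Mdm4, and 7 genes grouped as p53 response genes. These 7 are Ccng1, Sesn1, Sesn3, Zmat3, Phlda3, Eda2r and Pvt1, and whether each responds to p53 here was not tested. The 10 genes were taken by gene symbol, and all 10 were found among the 27998 features of both count tables. The measurement was single-nucleus RNA sequencing of mouse brain, with 1 library of the mock-irradiated condition, ShamRT-28d, and 1 library of whole brain radiotherapy, WBRT-28d. WBRT-28d mice had received 5 daily fractions of 2 Gy, 10 Gy in all, and both groups were collected 28 days after treatment. The animals were young female C57BL/6J mice. Each library was made from the frozen whole brains of 2 pooled mice. The labels call the ShamRT-28d sample untreated and name no transgene or deleted allele in either group. Since each condition is 1 pool and 1 library, no test between the conditions was possible, and every interval below is a 95% interval that covers counting error only.

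The protein p53 is a transcription factor that is stabilized after DNA damage and then activates genes for cell cycle arrest, repair, metabolism and cell death. Mdm2 is the ubiquitin ligase that sends p53 to the proteasome, Mdm4 is its relative that blocks p53 as a transcription factor, and Mdm2 is itself a p53 target, so the pathway contains a negative feedback loop. Much of this control acts on the p53 protein, which RNA counts do not measure. In the irradiated brain the p53 response is best known as an early event in dividing precursors and oligodendrocyte lineage cells.

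The binding element of p53 is made of 2 copies of a decamer with a CNNG core, the p53 half-site. Windows from 250 bases before to 50 bases after each RefSeq gene start (GRCm38.p6) were searched for the half-site on both strands. The half-site was chosen since the genes are grouped by their relation to p53. The promoter table held 10 windows for 8 of the 10 genes, all but Zmat3 and Pvt1. At least 1 half-site was found for 4 of these 8 genes, against 8.20% of 27025 genes and 7.13% of 32851 windows in the whole table. The 4 matches are printed below on the gene's own strand with 10 bases on either side, and capitals mark the half-site.
Trp53, chr11:69580274-69580303, plus strand, the half-site starting 75 bases before the gene start: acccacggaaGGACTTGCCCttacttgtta
Mdm2, chr10:117710925-117710954, minus strand, 186 bases before the start: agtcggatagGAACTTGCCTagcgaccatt
Ccng1, chr11:40755452-40755481, minus strand, 185 bases before the start: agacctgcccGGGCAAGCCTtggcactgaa
Sesn1, chr10:41887256-41887285, plus strand, 173 bases before the second of its starts: cttggccttcAAGCTTGTTTttgctggcct
The windows of Mdm4, Sesn3, Phlda3 and Eda2r held no such decamer, which says nothing of sites elsewhere. Of 41 genes with a window on a longer list of p53 targets used below, 10 held a half-site. A match is a description of letters, and binding was not measured.

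The genes differ in size, which bears on how many molecules of each could be counted, because intronic reads were included. In GRCm38 (GENCODE vM21), Pvt1 is a long intergenic non-coding RNA at chr15:62037986-62378096, of which 2.06% is exonic. Trp53 spans chr11:69580359-69591873 and Mdm2 chr10:117688875-117710758, while Mdm4 lies at chr1:132959484-133030561. Ccng1 occupies only 6.76 kb at chr11:40748552-40755311, and Phlda3 only 3.02 kb at chr1:135766119-135769136. Sesn1 lies at chr10:41809935-41908424, Sesn3 at chr9:14275067-14333101, Zmat3 at chr3:32334792-32366014 and Eda2r at chrX:97333840-97377216. No other gene of the count tables overlapped any of the 10. Levels are therefore compared below for 1 gene across classes and conditions, not between genes.

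After filtering, 10024 ShamRT-28d nuclei (39043285 unique molecular identifiers, UMIs, median 2317 per nucleus) and 13664 WBRT-28d nuclei (53311731 UMIs, median 2457.5) were kept, and 43 cell barcodes occurred in both libraries. Nuclei fell into 43 clusters, of which 7 were left unnamed, and 18 marker-named classes are described, each with 100 nuclei or more per library. The mixture differed between the libraries. Endothelial-like nuclei, for example, numbered 221 in ShamRT-28d and 523 in WBRT-28d, and GABA neuron-like nuclei marked by Baiap3 numbered 215 and 768. Neuronal RNA in non-neuronal classes differed as well. The summed level of 6 pan-neuronal genes was 8.30–17.1% of the library mean in the 7 non-neuronal classes of ShamRT-28d and 13.2–27.0% in WBRT-28d, and it was higher in WBRT-28d in each of them. A level that such free RNA alone would give was computed for every gene from this share, and is printed where it bears on a result.

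Trp53 was counted 688 times in ShamRT-28d and 1102 times in WBRT-28d. Its level was highest in microglia-like nuclei of both libraries, at 72.3 UMIs per 1000000 UMIs of the class (CPM, 95% interval 56.6–91.1) in ShamRT-28d and 60.6 (48.4–74.9) in WBRT-28d. Oligodendrocyte-like nuclei came next at 38.5 (33.2–44.5) and 39.4 (33.9–45.6) CPM. The microglia-like interval lay above the oligodendrocyte-like one in both libraries. Fibroblast-like, mural-like, astrocyte-like, endothelial-like and OPC-like nuclei (OPC, oligodendrocyte precursor cell) followed at 19.7–31.6 CPM in ShamRT-28d and 21.9–33.4 CPM in WBRT-28d, with overlapping intervals. In the 11 neuron classes the median was 9.63 CPM in ShamRT-28d and 12.6 CPM in WBRT-28d, and no neuron class exceeded 14.1 and 17.7 CPM. Glial Trp53 was thus several times the level that free RNA would give, which was at most 5.03 CPM in microglia-like and 4.05 CPM in oligodendrocyte-like nuclei.

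Mdm2 was highest in oligodendrocyte-like nuclei, at 91.3 (82.9–100) CPM in ShamRT-28d and 98.4 (89.5–108) CPM in WBRT-28d. Microglia-like nuclei followed at 78.3 and 74.1 CPM, with intervals that overlapped those of oligodendrocyte-like nuclei in both libraries. The neuron classes held 30.8–58.6 CPM in ShamRT-28d and 30.1–49.6 CPM in WBRT-28d. Mdm4 had another order, with oligodendrocyte-like nuclei at 153 CPM in ShamRT-28d and 155 CPM in WBRT-28d. It was highest in microglia-like nuclei, at 201 (174–231) and 177 (155–200) CPM, next in fibroblast-like nuclei at 188 and 175 CPM, and lowest in a neuron class of each library, at 69.9 CPM in indirect-pathway spiny neuron-like nuclei of ShamRT-28d and 84.6 CPM in excitatory neuron-like nuclei marked by Fam19a1 of WBRT-28d.

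The sestrins, stress-induced proteins that restrain mTORC1 signalling, had separate distributions. Sesn1 was highest in microglia-like nuclei, with 288 (256–324) CPM in ShamRT-28d and 268 (242–297) CPM in WBRT-28d, and endothelial-like and fibroblast-like nuclei held 258–273 CPM in ShamRT-28d and 227–238 CPM in WBRT-28d. The intervals of these 3 classes overlapped. Sesn3 instead was low in microglia-like nuclei, at 37.2 and 67.7 CPM. It reached 294 (226–376) CPM in mural-like nuclei and 253 (230–278) CPM in astrocyte-like nuclei of ShamRT-28d. In WBRT-28d indirect-pathway spiny neuron-like nuclei held the most, 241 (224–260) CPM, followed by astrocyte-like nuclei with 221 (206–236) CPM.

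Zmat3, a zinc finger RNA-binding protein, was higher in most neuron classes than in glia, unlike Trp53. Its median over the 11 neuron classes was 42.3 CPM in ShamRT-28d and 41.0 CPM in WBRT-28d, and the 7 non-neuronal classes held 11.6–37.1 and 17.6–36.3 CPM. Ccng1, the cyclin that brings phosphatase 2A to Mdm2, was sparse, with 446 and 592 UMIs in all. Its level in Rorb cortical neuron-like nuclei was 19.1 (14.3–24.98) CPM in ShamRT-28d and 22.3 (17.6–27.8) CPM in WBRT-28d, above the 3.62 (1.33–7.87) and 3.35 (1.61–6.16) CPM of indirect-pathway spiny neuron-like nuclei without overlap of the intervals. Phlda3, whose protein competes with Akt for membrane lipids, and Eda2r, a TNF receptor family member that binds ectodysplasin A2, were both rare and highest in oligodendrocyte-like nuclei, at 12.6 and 14.7 CPM for Phlda3 and 7.33 and 5.26 CPM for Eda2r. Of the 111 Phlda3 UMIs of ShamRT-28d, 60 came from oligodendrocyte-like nuclei, as did 67 of the 194 in the WBRT-28d library. For Eda2r these numbers were 35 of 63 and 24 of 51. Over the 11 neuron classes the highest Eda2r level was 0.603 CPM in ShamRT-28d and 0.641 CPM in WBRT-28d.

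Pvt1, the long non-coding RNA next to Myc, differed widely between classes. Pvalb, Sst and Vip interneuron-like nuclei held 285, 279 and 238 CPM in ShamRT-28d and 247, 233 and 263 CPM in WBRT-28d. Dentate granule neuron-like nuclei followed with 203 (183–225) and 206 (185–230) CPM, microglia-like nuclei with 197 and 206 CPM, and oligodendrocyte-like nuclei with 166 and 188 CPM. Rorb cortical neuron-like nuclei held only 42.5 and 39.4 CPM, and mural-like, endothelial-like and fibroblast-like nuclei less in ShamRT-28d. As a description of how far the class patterns recurred, Spearman's rho between the libraries over the 18 classes was 0.97 for Pvt1, 0.87 for Trp53, 0.87 for Mdm2, 0.88 for Mdm4, 0.88 for Sesn3 and 0.80 for Sesn1. It was 0.37 for Phlda3. The classes of a library share its depth and its free RNA.

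**Figure D1:**
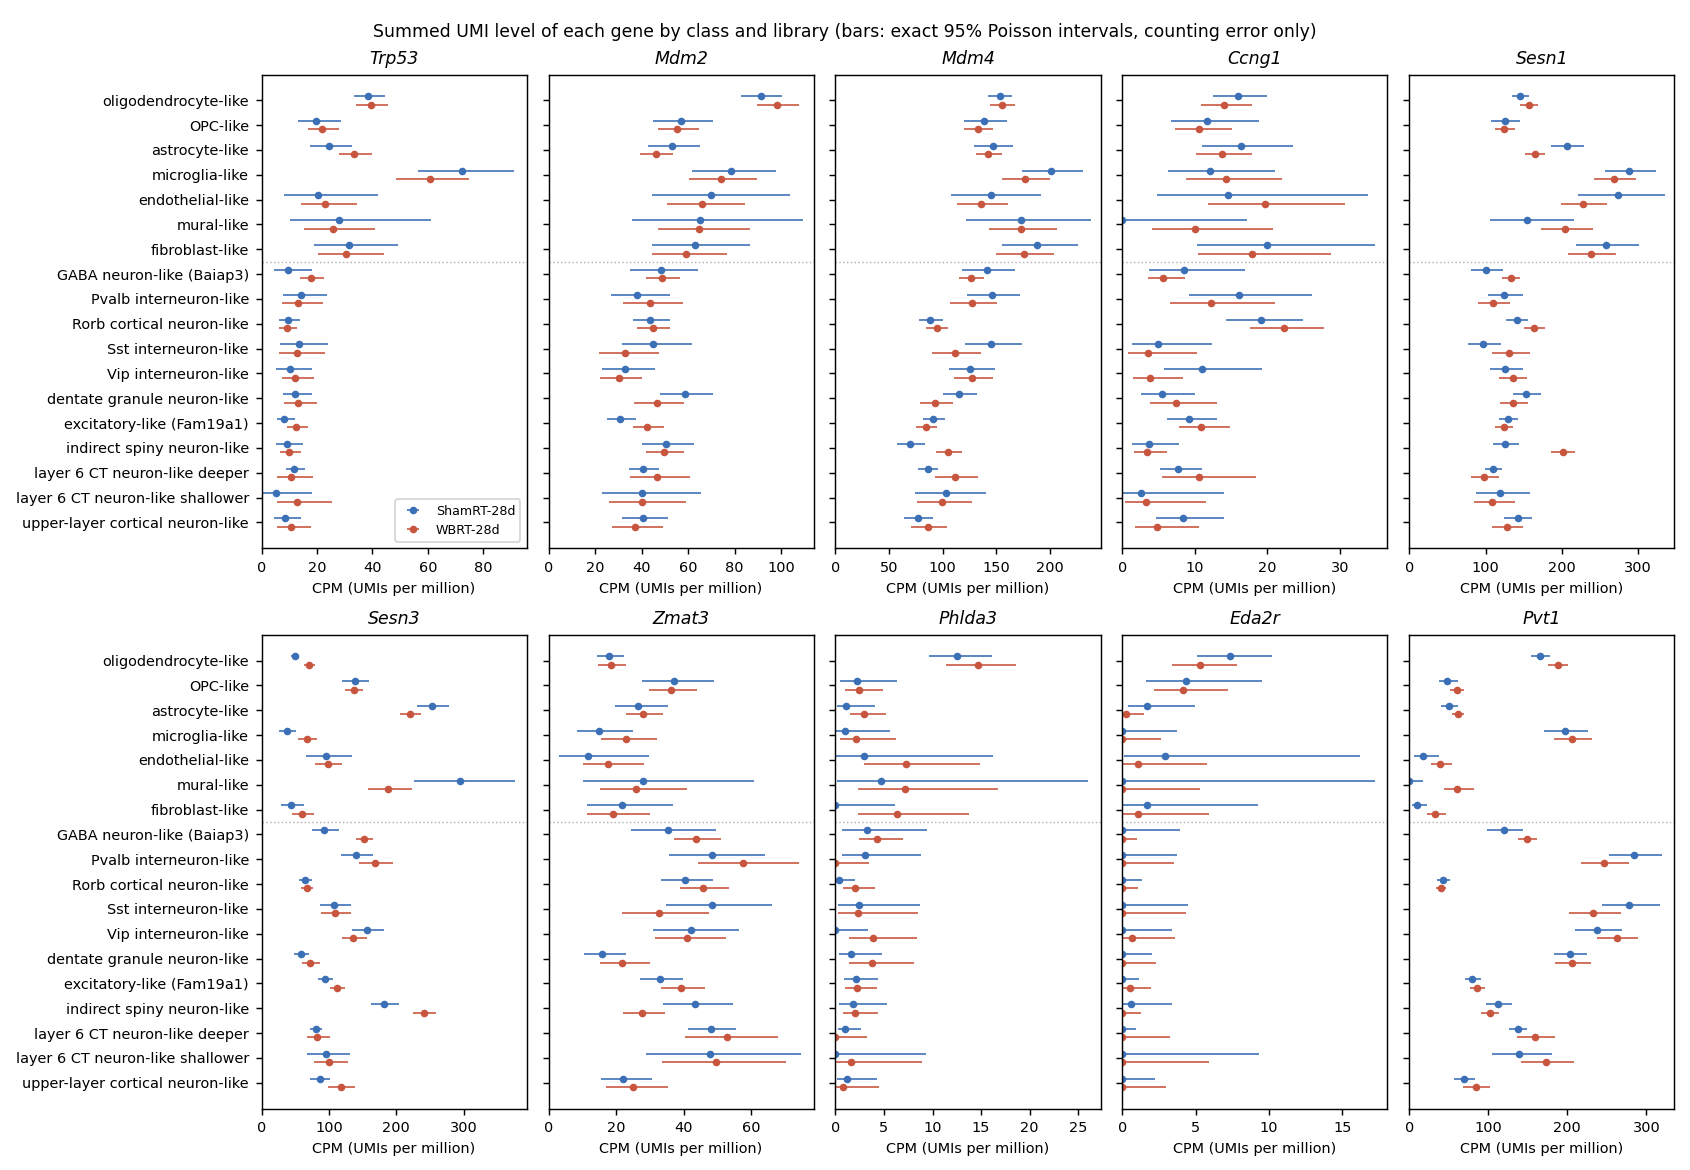
Level of each of the 10 genes in CPM (horizontal axes) in 18 classes (rows, neuron classes under the dotted line) with blue points for ShamRT-28d, red points for WBRT-28d and exact 95% Poisson intervals as bars. Trp53 is highest in microglia-like nuclei of both libraries, Zmat3 in neurons, and Pvt1 in Pvalb, Sst and Vip interneuron-like nuclei.

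Other genes with class patterns near those of the members were looked for among 11821 genes with at least 500 UMIs, by Pearson's r of log2(CPM + 1) over the 18 classes. For Trp53 these were Bmp2k (r = 0.96), Cyp4f13 (0.96) and Gm37494 (0.95). For Mdm2 they were Aven (0.92), Dnajb12 (0.91) and 2310035C23Rik (0.90), and for Mdm4 Ubxn7 (0.95), Cep350 (0.94) and Gm26518 (0.94). Sesn1 came closest to Hnrnpf (0.93), 4930599N23Rik (0.93) and Ccnl1 (0.92), and Sesn3 to Dgkb (0.78), Fam163a (0.78) and Dzip1l (0.77). Zmat3 was followed by Dzip1 (0.90), Agbl4 (0.90) and Mir124-2hg (0.88), and Ccng1 by Ackr4 (0.79), 1700113A16Rik (0.77) and Msl3 (0.76). Phlda3 resembled Tmcc2, Ywhaq and RP24-263G24.2 at 0.85–0.86. Eda2r resembled Fbxo7 (0.92), 1700047M11Rik (0.90) and Fam102a (0.89), and Pvt1 resembled Fam168a (0.86), Rnf128 (0.80) and Bysl (0.80). No member was the nearest gene of another.

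The conditions were then compared with the mixture of cell types held equal. The measure was a Mantel-Haenszel ratio of UMI shares (WBRT-28d to ShamRT-28d) over those of the 43 clusters with nuclei in both libraries. GABA neuron-like nuclei marked by Cpa6, 97 in ShamRT-28d and 0 in WBRT-28d, thus added nothing to it, though their UMIs are in the counts below. Most members lay close to 1. Mdm4 came nearest to it, with 4581 and 6580 UMIs and a matched ratio of 0.996 (0.956–1.04). Mdm2 stood at 1.02 (0.962–1.09) from 2079 and 2909 UMIs, and Trp53 at 1.11 (1.0–1.23). With each nucleus thinned to 1000 UMIs, Trp53 was at 1.02. Among the response genes, Zmat3 had a ratio of 1.03 (0.950–1.11) from 1275 and 1708 UMIs and Ccng1 one of 0.953 (0.837–1.09). Sesn1, with 5507 and 8607 UMIs, was at 1.05 (1.02–1.09), but at 0.943 when each nucleus was thinned to 1000 UMIs. Sesn3, with 3739 and 6612 UMIs, was at 1.12 (1.08–1.17), and Pvt1, with 4617 and 6321 UMIs, at 1.09 (1.04–1.13).

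Phlda3 had a matched ratio of 1.31 (1.02–1.68), from 111 and 194 UMIs. Eda2r was the 1 member past a fold of 1.5, at 0.653 (0.444–0.961) from 63 and 51 UMIs, lower in WBRT-28d. Of 15489 genes with at least 100 UMIs, 5.5% were lower by that fold and 1.13% were higher, so 1 member of 10 lower and none higher is near the background. The Eda2r ratio also depended on the treatment of the nuclei. It was under the fold in 5 of 9 alternative analyses, and ranged from 0.552 when each nucleus was classed by its own marker UMIs to 0.760 with doublets kept. In oligodendrocyte-like nuclei alone it was 0.718 (0.408–1.24), and a small dividing-like cluster held 8 Eda2r UMIs in 126 ShamRT-28d nuclei and none in its 11 WBRT-28d nuclei, too few to show a difference.

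Over all genes the median matched ratio was 0.973, with 42.2% of genes above 1. Of the 10 members 7 were above 1 and their median was 1.04. Matching moved Sesn3 most. It had a ratio of 1.30 over all kept nuclei, against 1.12 within clusters, and Pvt1 went from 1.003 to 1.09.

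**Figure D2:**
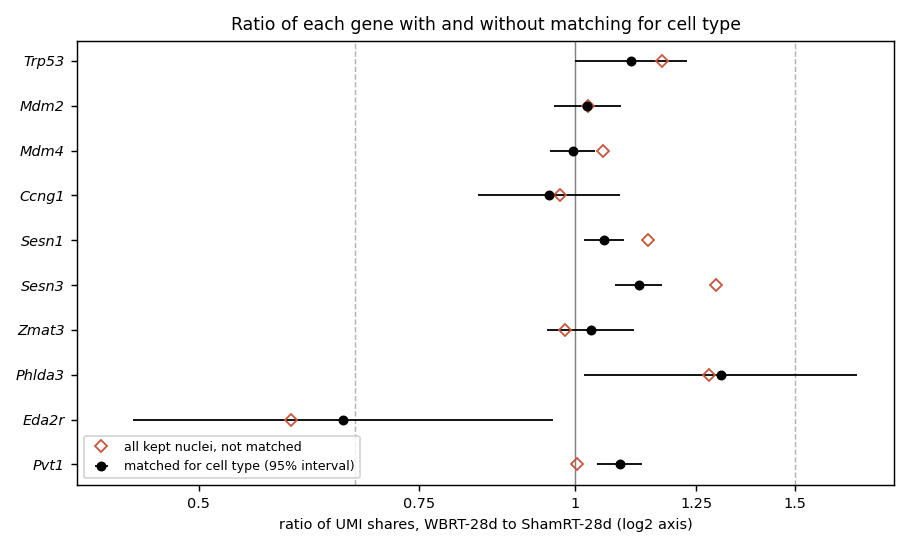
Ratio of UMI shares, WBRT-28d to ShamRT-28d, on a log2 axis for the 10 genes, matched for cell type (black points, bars are 95% intervals for counting error) and over all kept nuclei (red diamonds). Dashed lines mark a fold of 1.5, and only Eda2r, at 0.653, lies beyond one of them.

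The same ratio was next taken within each class. A gene was counted in a class where both libraries together gave at least 100 UMIs, which left 95 pairs of gene and class for 9 of the 10 genes, Eda2r having none. Of these, 53 were above 1 and 42 below, a share of 55.8% above 1 beside 51.7% over all gene and class pairs. A fold of 1.5 was passed upward by 4 pairs and downward by 2, against 6.7% and 4.84% of 91506 pairs over all genes, so both shares were below the background. Mdm2 ranged from 0.793 to 1.38 over 11 classes and passed the fold in none, nor did Pvt1 over 15 classes, from 0.836 to 1.246. Trp53 reached 100 UMIs in 3 classes, with ratios of 1.02 (0.829–1.26) in oligodendrocyte-like, 0.838 (0.605–1.16) in microglia-like and 1.37 (0.965–1.99) in astrocyte-like nuclei.

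**Figure D3:**
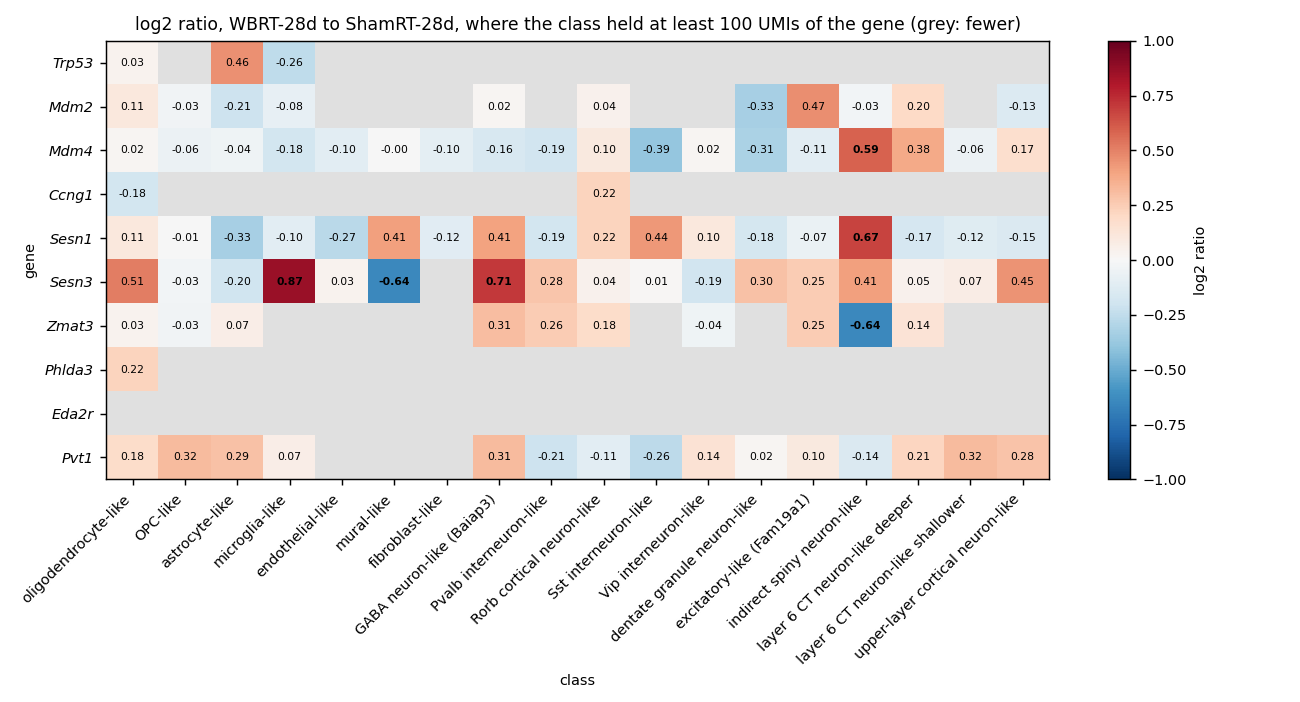
Log2 ratio, WBRT-28d to ShamRT-28d, of each gene (rows) in each class (columns), shown as color and number where the class held at least 100 UMIs of the gene, with grey for fewer. Bold numbers pass a fold of 1.5, and these are Sesn3 in microglia-like, mural-like and Baiap3 GABA neuron-like nuclei and Mdm4, Sesn1 and Zmat3 in indirect-pathway spiny neuron-like nuclei.

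In astrocyte-like nuclei Trp53 was counted 43 times in ShamRT-28d (24.3 CPM, 17.6–32.8) and 127 times in WBRT-28d (33.4 CPM, 27.9–39.8). The ratio was 1.26 (0.854–1.89) in the larger astrocyte-like cluster, with 586 and 1146 nuclei and 37 and 100 Trp53 UMIs. In the smaller one, with 81 and 165 nuclei and 6 and 27 UMIs, it was 2.10 (0.849–6.21). Both intervals included 1. To take depth into account, every nucleus was thinned to 1000 UMIs, which left out 28 shallower ShamRT-28d nuclei and none of WBRT-28d. A Trp53 UMI was then present in 10 of 639 ShamRT-28d nuclei (1.56%, Clopper-Pearson interval 0.753–2.86%) and in 41 of 1311 WBRT-28d nuclei (3.13%, 2.25–4.22%). Without thinning the shares were 6.00% and 9.08%, at median depths of 2326 and 2631 UMIs. In excitatory neuron-like nuclei (Fam19a1) Trp53 went from 27 UMIs (8.24 CPM) to 46 UMIs (12.6 CPM), a ratio of 1.52 (0.928–2.55). These counts were under the minimum of 100 UMIs. The thinned shares were 0.827% and 1.10%, and 1.52% and 2.48% without thinning, at median depths of 1581 and 1758 UMIs. The intervals of the thinned astrocyte shares overlapped, and the difference between the libraries was not tested. In astrocyte-like nuclei Sesn1 went from 206 (186–229) to 164 (152–178) CPM, a ratio of 0.795 (0.698–0.907). Sesn3 went from 253 to 221 CPM there, a ratio of 0.871 (0.776–0.979).

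Sesn3 gave 3 of the 6 pairs past the fold. In microglia-like nuclei it had 37 UMIs (37.2 CPM) in ShamRT-28d and 95 UMIs (67.7 CPM) in WBRT-28d, a ratio of 1.82 (1.23–2.74), where 11.4% of 4876 genes were higher by the fold. In the finer clusters the ratio was 1.62 (0.943–2.83), with 352 and 315 nuclei, and 1.60 (0.868–3.19), with 197 and 372 nuclei, and both intervals included 1. After thinning to 1000 UMIs, which left out 50 and 0 nuclei, 4.81% (3.11–7.07%) of the microglia-like nuclei of ShamRT-28d and 5.24% (3.70–7.18%) of those of WBRT-28d held a Sesn3 UMI, against 5.65% and 9.61% without thinning. The thinned shares thus hardly differed. The level that free RNA would give was 10.5 CPM in ShamRT-28d and 30.2 CPM in WBRT-28d, and the 6 pan-neuronal genes summed to 1038 and 2134 CPM, each higher in WBRT-28d, so that free RNA moved in the same direction. The 10 microglia markers were all lower in WBRT-28d, by a summed ratio of 0.715. The part of these in the Sesn3 ratio was not tested. In oligodendrocyte-like nuclei Sesn3 went from 49.4 (43.3–56.1) to 70.6 (63.1–78.7) CPM, a ratio of 1.43 (1.20–1.70), beside a free RNA level of 7.95 and 24.3 CPM. In the same nuclei the 11 oligodendrocyte markers had a summed ratio of 0.804, with 10 lower, while all 10 astrocyte and all 6 spiny projection neuron markers were higher, with summed ratios of 2.16 and 2.50. Sesn3 is abundant in both of those types, and their part in the ratio was not tested.

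In Baiap3 GABA neuron-like nuclei Sesn3 had 87 UMIs (93.1 CPM) in ShamRT-28d and 568 UMIs (152 CPM) in WBRT-28d. The ratio was 1.64 (1.30–2.07), where 4.72% of 6759 genes were higher by the fold. The share of nuclei with a Sesn3 UMI after thinning was 7.73% (4.39–12.4%) and 13.4% (11.1–16.03%), and 26.5% and 38.2% without it. The ratio was 1.24 (0.801–2.00) in one finer cluster and 1.74 (1.33–2.32) in the other. Sim1, a transcription factor gene of hypothalamic and amygdalar neurons, went from 1 to 179 UMIs in the same class, and the 5 GABA neuron markers summed to 573 and 407 CPM, all lower in WBRT-28d. Sim1 was chosen after its values were seen. The part of a different mix of neuron types within the class was not tested.

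In mural-like nuclei, the pericytes and smooth muscle cells of vessels, Sesn3 had 63 UMIs (294 CPM) in ShamRT-28d and 131 UMIs (188 CPM) in WBRT-28d. The ratio of 0.640 (0.471–0.879) was the lowest of the 95, and 7.83% of 1889 genes in the class were lower by the fold. It no longer passed the fold with doublets kept, at 0.672, or with each nucleus classed by its own markers, at 0.697. The share of nuclei with a Sesn3 UMI hardly differed, at 33.6% and 31.5%, or 18.2% (11.5–26.7%) and 16.4% (12.4–21.0%) after thinning, which left out 12 and 0 nuclei. The class held 122 and 305 nuclei, and its marker list moved in parts. The summed ratio of the 9 mural markers was 0.642, with the pericyte genes Vtn at 0.438, Kcnj8 at 0.376 and Pdgfrb at 0.521, while the smooth muscle genes Acta2 and Myh11 were 7.34 and 5.26 times as high in WBRT-28d. The 11 oligodendrocyte markers summed to 1428 and 3537 CPM. Whether the mix of pericytes, smooth muscle cells and other RNA sets the Sesn3 ratio was not tested.

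Indirect-pathway spiny neuron-like nuclei, of which there were 351 and 804, held the other 3 pairs. Sesn1 went from 209 UMIs (126 CPM) to 600 UMIs (201 CPM), a ratio of 1.60 (1.36–1.88). Mdm4 went from 116 UMIs (69.9 CPM) to 314 UMIs (105 CPM), a ratio of 1.504 (1.21–1.88). Zmat3 had 72 UMIs (43.4 CPM) and 83 UMIs (27.8 CPM), a ratio of 0.641 (0.462–0.891). In this class 10.8% of 5988 genes were higher by the fold and 6.05% lower.

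The finer clusters of these neurons differed for Sesn1. Its ratio was 0.970 (0.703–1.36) in a cluster of 170 and 509 nuclei and 1.93 (1.60–2.34) in a cluster of 172 and 259 nuclei. Mdm4 stood at 1.66 and 1.51 in the same clusters, and Zmat3 at 0.681 and 0.565. The 4 indirect-pathway markers were all lower in WBRT-28d, with a summed ratio of 0.622. Drd3, the D3 dopamine receptor gene of ventral striatal neurons, went from 14 to 157 UMIs, and Nrp2 from 15 to 490 UMIs. Both genes were chosen after their values were seen. The part of a different mix of striatal subtypes in the 3 ratios was not tested.

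The mural-like, endothelial-like and fibroblast-like classes stood out for Pvt1 at low counts. Mural-like nuclei held 0 Pvt1 UMIs in ShamRT-28d and 42 in WBRT-28d (60.4 CPM, 43.5–81.6). Set against 3 UMIs in place of the count of 0, which are 14 CPM in that class and library, the WBRT-28d level was 4.31-fold higher. That value leaves out the counting error of the WBRT-28d level and is not a lower bound. Endothelial-like nuclei held 6 UMIs (17.4 CPM, 6.40–38.0) and 38 UMIs (39.3 CPM, 27.8–53.9), a ratio of 2.25 (0.944–6.51). Fibroblast-like nuclei held 6 UMIs (9.97 CPM, 3.66–21.7) and 31 UMIs (32.7 CPM, 22.2–46.5), a ratio of 3.28 (1.35–9.62).

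All 3 of these classes were thus higher in WBRT-28d, but low genes there often were. Among genes with at least 20 UMIs, 24.6% were higher by the fold in mural-like, 18.4% in endothelial-like and 13.4% in fibroblast-like nuclei. Free RNA would give 20.3 and 32.0 CPM of Pvt1 in mural-like, 15.9 and 29.2 CPM in endothelial-like and 10.7 and 22.2 CPM in fibroblast-like nuclei. The endothelial-like interval included the free RNA level in both libraries, and the fibroblast-like interval included it in ShamRT-28d and began at it in WBRT-28d. In mural-like nuclei the measured value was below it in ShamRT-28d and above it in WBRT-28d. With doublets kept, the mural-like counts were 9 and 58 UMIs, a ratio of 2.17, and with each nucleus classed by its own markers they were 3 and 68 UMIs. The part of the oligodendrocyte RNA given above, in nuclei whose own Pvt1 level is high, was not tested. In oligodendrocyte-like nuclei Pvt1 went from 166 (154–178) to 188 (176–201) CPM, a ratio of 1.14 (1.03–1.253), and the ratio was 1.23 (0.956–1.59) for astrocyte-like and 1.246 (0.934–1.68) for OPC-like nuclei. The neighbouring gene Myc had 18 and 25 UMIs in all.

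**Figure D4:**
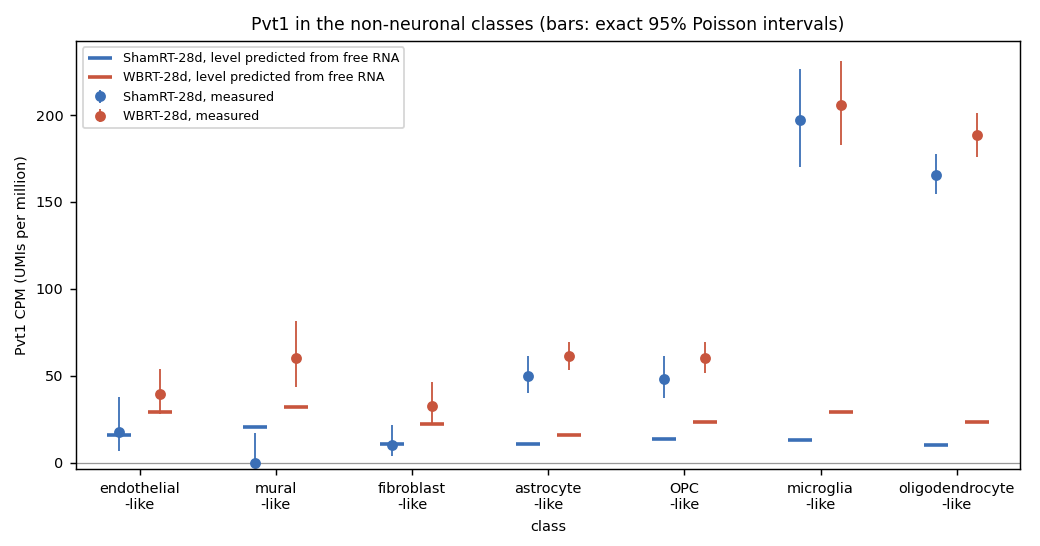
Pvt1 level in CPM (vertical axis) in the 7 non-neuronal classes (blue, ShamRT-28d, and red, WBRT-28d), with exact 95% Poisson intervals, and short horizontal marks for the level that free RNA alone would give. Endothelial-like, mural-like and fibroblast-like nuclei lie at 0–17.4 CPM in ShamRT-28d and 32.7–60.4 CPM in WBRT-28d.

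A longer list of p53 targets was read in the same way. Of 52 listed genes, 51 were in the tables and 44 had at least 100 UMIs. Past the fold of 1.5 there were 3 higher and 0 lower in WBRT-28d, against the 1.13% and 5.5% of all genes. The median ratio was 1.02, with 25 genes above 1 and 19 below, beside a median of 0.973 and 42.2% above 1 over all genes. Cdkn1a, the cyclin-dependent kinase inhibitor p21, had 80 and 192 UMIs and a matched ratio of 1.61 (1.21–2.15), and with doublets kept it was 1.46, under the fold. Fas, a death receptor, had 42 and 199 UMIs and a matched ratio of 1.75 (1.253–2.44). Its ratio over all nuclei was 3.47, and endothelial-like nuclei alone held 25 and 90 of the UMIs, with a ratio of 1.28 (0.814–2.08). Without the endothelial-like cluster the matched ratio of Fas was 2.53.

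Trp73, the p53 relative, had 85 and 163 UMIs and a ratio of 1.95 (1.53–2.47). Most of this came from 1 cluster, excitatory neuron-like nuclei marked by Ebf2, with 11 and 42 UMIs, and without it the ratio was 1.12. With clusters at resolution 2 it was 1.20. The 6 targets with the most UMIs lay near 1 except Ddb2. They were Exoc4 of the exocyst at 1.02, the ubiquitin ligase subunit Fbxw7 at 1.03, the anti-apoptotic Bcl2l1 at 1.05, the heparan sulfatase Sulf2 at 1.06, the translesion polymerase Polk at 1.04 and the DNA damage sensor Ddb2 at 0.847 (0.789–0.908). Pmaip1, Tnfrsf10b, Gdf15, Pidd1, Gtse1 and Spata18 were among the listed genes with under 100 UMIs.

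Of 47 listed regulators and partners of p53, 45 were in the tables and 44 had at least 100 UMIs. None passed the fold in either direction, against 1.13% of all genes higher and 5.5% lower. Of the 44 genes, 29 were above 1 and 15 below, with a median of 1.06 and a range of 0.907–1.30. Of all genes 42.2% were above 1, with a median of 0.973. The acetyltransferase Crebbp was at 1.11, the ubiquitin ligase Huwe1 at 1.04, and the kinases Gsk3b, Csnk1a1 and Hipk2 at 1.09, 1.05 and 1.10. The SUMO ligase Pias1 was at 1.05. Cdkn2a, which encodes the Mdm2 inhibitor Arf as well as p16, had 12 and 13 UMIs in all, too few for a ratio.

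Most relatives of the members lay below 1, and of all genes only 42.2% were above it. Zmat4, Phlda1, Trp63 and Trp73, the last described above, lay above 1. Sesn2 was at 0.999 (0.791–1.26) and Trp63 at 1.12 (0.815–1.55). Ccng2 had 329 and 412 UMIs and a ratio of 0.820 (0.703–0.958), beside 0.953 for Ccng1. Zmat1, Zmat2, Zmat4 and Zmat5 stood at 0.969, 0.959, 1.05 and 0.876, and Phlda1 at 1.08. On the ectodysplasin side, the ligand gene Eda was at 0.995 (0.943–1.05), the receptor Edar at 0.825 (0.558–1.22), its adaptor Edaradd at 0.826 (0.577–1.18), and Traf6, which signals downstream of Eda2r, at 0.804 (0.747–0.865) from 1577 and 1858 UMIs.

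**Figure D5:**
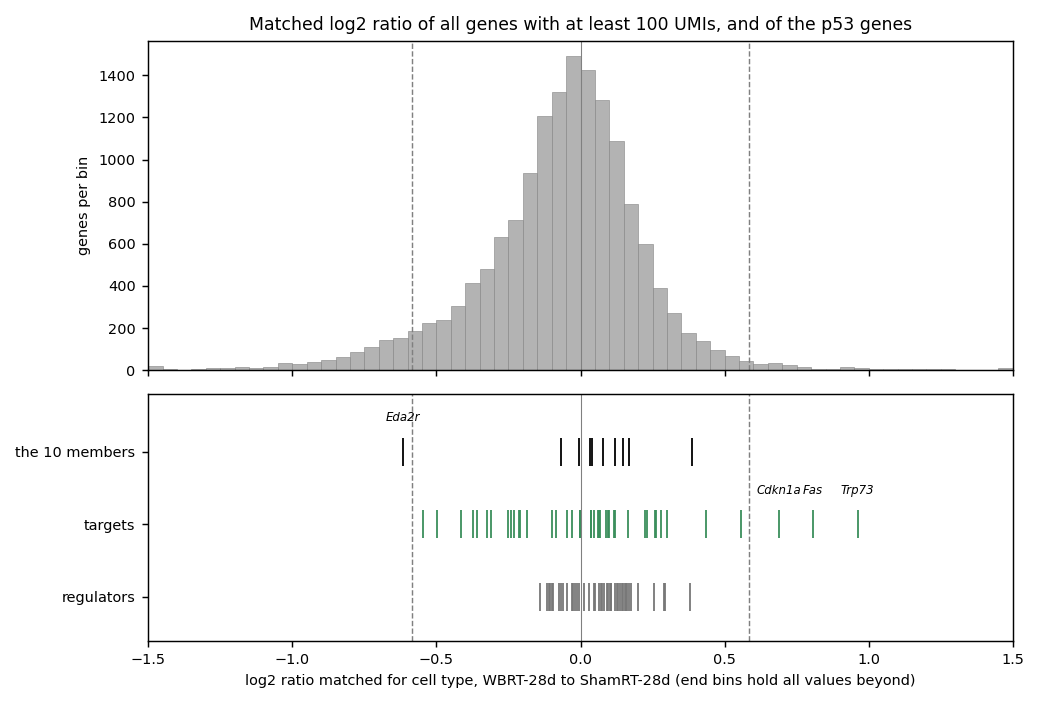
Matched log2 ratio, WBRT-28d to ShamRT-28d (horizontal axis), as a histogram of 15489 genes with at least 100 UMIs (top, genes per bin, with end bins holding all values beyond) and as 1 tick per gene for regulators, targets and the 10 members (bottom). Dashed lines mark a fold of 1.5, beyond which lie Cdkn1a, Fas and Trp73 on the right and Eda2r on the left.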

How the data were processed

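The authors sequenced 3′ tagged nuclear RNA from frozen whole brains and, per the study's methods, counted reads with Cell Ranger 5.0.0 on a pre-mRNA reference that includes introns. GEO's processing field, as filled in by the submitters, gives the build mm10 and lists R 3.5.3 and Seurat 3.0. The labels give 3′ v2 chemistry. The deposited tables hold raw UMI counts per gene and nucleus for 11469 ShamRT-28d and 15986 WBRT-28d barcodes, totalling 45511469 and 68423922 UMIs.

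Nuclei with under 500 genes (326 and 0) or over 5% mitochondrial UMIs (107 and 318) were left out, and so were doublets scored by Scrublet in scanpy 1.11.5 (1013 and 2004, a set rate of 0.8% per 1000 nuclei). The 2 libraries were clustered together (2000 variable genes, 30 components, Louvain resolution 0.8, neurons clustered again). The members and listed p53 genes were left out of the variable genes, and clusters were named from marker lists. UMIs were summed per library and class and scaled to CPM of the class total. Ratios matched for cell type are Mantel-Haenszel ratios over clusters with a Greenland-Robins interval. Class levels have exact Poisson intervals and class ratios exact conditional binomial ones. All intervals are at the 95% level and cover counting error, not the spread between mice. A fold of 1.5 and a minimum of 100 UMIs over both libraries were used. The free RNA level of a gene is its library mean level times the class's share of pan-neuronal RNA, and so treats all such RNA as free.

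Named were all 10 members, listed genes past the fold, the 6 with the most UMIs per list, relatives with 100 UMIs or more, and the 3 genes most correlated with each member. The members and lists were chosen with earlier results of these data known. The ratios were tested on simulated data. Alternatives for nuclei, doublets, strata, scaling, depth, fold and minimum are given at the end. Scripts ran in Python 3.11.15 with scipy 1.17.1, igraph 0.11.9, scikit-learn 1.9.0, pandas 2.3.3 and numpy 2.4.6.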

Additional observations from a re-analysis of the deposited data

Results flagged for a closer look

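Sesn3 moved in opposite directions in different classes. The ratio of WBRT-28d to ShamRT-28d was 1.64 in Baiap3 GABA neuron-like nuclei and 1.82 in microglia-like nuclei, but 0.640 in mural-like nuclei. The mural-like ratio was 0.697 with each nucleus classed by its own markers. After thinning to 1000 UMIs, 4.81% of microglia-like nuclei held a Sesn3 UMI in ShamRT-28d and 5.24% in WBRT-28d. The shares were 18.2% and 16.4% for mural-like nuclei, so between these classes the opposite movement was nearly absent. For Baiap3 GABA neuron-like nuclei they went from 7.73% (4.39–12.4%) in ShamRT-28d to 13.4% (11.1–16.03%) in WBRT-28d. Each class gave 1 value per library, and the difference between the classes was not tested. In the same comparison Sesn1 had ratios of 1.32, 0.930 and 1.33 in these classes.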

How the results depend on the processing

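No paired analysis was possible because each condition is 1 library. Leaving out a library leaves no comparison. Over 9 alternatives for each of the 10 members, 82 of 90 matched ratios moved by less than the counting interval and 8 moved further. Not matched for cell type, the log2 ratio was 0.073 for Mdm4, 0.19 for Sesn1, 0.37 for Sesn3 and 0.0038 for Pvt1. With each nucleus thinned to 1000 UMIs it was -0.29 for Ccng1, -0.085 for Sesn1 and 0.20 for Zmat3. Thinning left out 468 ShamRT-28d nuclei and none of WBRT-28d, and Sesn1 then lay below 1. With nuclei classed by their own markers, Pvt1 was at -9.07e-06. The count of members past the fold, 1 as reported, was 0 with doublets kept, with clusters at resolution 2, with named classes only, with the median gene set to 1 and with thinning. Of 36 gene and class pairs that could be formed with nuclei classed by their own markers, 1 passed the fold, against 2 of the same pairs as reported. Sesn3 in mural-like nuclei was the one lost. Of single class values, Mdm2 in oligodendrocyte-like nuclei (0.911 with that classing) and Pvt1 in mural-like nuclei moved out of their intervals. At a looser fold, a ratio of 5 to 4, targets had 5 higher and 6 lower, against 5.36% and 15.6% of all genes, and regulators had 1 higher, Chek1. Of other named list genes, 209 of 243 values stayed within the interval and 34 moved. Phlda3 and Eda2r are limited by depth, with at most 194 UMIs in a library. The causes of these shifts were not tested.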
